A study of Mus musculus with 9 samples.

Results

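Replication licensing genes encode the proteins that load the MCM helicase onto DNA once per cell cycle, restrain that loading, switch the helicase on, or act at the fork that it opens. The genes considered here were Mcm2, Mcm3, Mcm4, Mcm5, Mcm6 and Mcm7, the subunits of the helicase, together with Cdt1, Dbf4, Gmnn and Pcna. Members were taken as the rows of the deposited value table whose platform annotation gives 1 of these symbols alone. Of the 10 genes, 9 had such a row, and Mcm4 was not analysed here. The 9 genes were measured by 15 spotted clones, among 8106 genes and 17207 clones compared on the arrays.

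The origin recognition complex, Cdc6 and Cdt1 place the MCM complex on origins in G1. Geminin, the product of Gmnn, binds Cdt1 after S phase has begun and prevents a further round of loading, and Dbf4 is the activating subunit of the Cdc7 kinase, which phosphorylates the loaded MCM complex. PCNA is the sliding clamp that holds DNA polymerases at the fork. Transcripts of most of these genes are abundant in proliferating cells and scarce in quiescent ones, and many are targets of the E2F transcription factors.

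Stroma was microdissected with a laser from prostates of mice hemizygous for the CR2-TAg transgene, which places SV40 large T antigen under regulatory elements of the cryptidin-2 gene (Defcr2) and directs it to prostatic neuroendocrine cells. The invasive cancer group held 6 arrays from mice of 24 weeks, and the prostate intraepithelial neoplasia (PIN) group held 3 arrays from mice of 10 weeks, numbered 2, 3 and 4. All were male FVB mice carrying the transgene, each array came from 1 mouse, and the fourth PIN array of the study was not analysed here. Each two-color array of spotted cDNA clones carried a sample labelled with Cy5 and, labelled with Cy3, the pool of PIN samples, so every value is a log2 ratio of sample over PIN pool. Age and tumor stage changed together and cannot be told apart. Tumor cells carry an antigen that drives the cell cycle, PIN samples were measured against a pool that contained them, and the stroma was cut from a wider margin around the epithelium in invasive cancer than in PIN.

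Arrays held 17189 to 17206 values each. PIN replicate 4 correlated with the other PIN arrays at r = 0.176 to 0.189 over all clones, whereas PIN replicates 2 and 3 correlated with each other at 0.672. With the invasive arrays, PIN replicate 4 correlated at 0.218 to 0.293. Invasive replicate 3 also stood apart, with the lowest medians of macrophage, fibroblast and endothelial markers among the invasive arrays. Counts are therefore given below also without these arrays. Since a ratio carries no level, the presence of stromal markers in either group could not be checked, and in whole dissected stroma fewer cells of a type and less RNA per cell cannot be told apart.

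Promoter sequence of the helicase genes is shown first because E2F factors are known regulators of licensing. RefSeq windows of GRCm38.p6, running from 250 bases before to 50 bases after an annotated start, were found for 8 of the 9 genes, in 9 windows. Each was searched on both strands for 4 E2F words (TTTGGCGC, TTTCGCGC, TTTCCCGC, TTTGCCGC) and for CCAAT, the word of the factor NF-Y. An E2F word lay in the windows of 5 of the 8 genes, Mcm3, Mcm5, Mcm6, Mcm7 and Cdt1, against 2.26% of 32851 mouse windows and 3.85% of the 8459 windows of genes tested on the arrays. CCAAT lay in the windows of 6 of the 8, against 37.4% of all windows. The 200 bases before the start follow for Mcm5 (chr8:75109309-75109508, plus strand), Mcm6 (chr1:128359706-128359905, minus strand) and the first start of Mcm7 (chr5:138171884-138172083, minus strand), with E2F words in capitals.
Mcm5: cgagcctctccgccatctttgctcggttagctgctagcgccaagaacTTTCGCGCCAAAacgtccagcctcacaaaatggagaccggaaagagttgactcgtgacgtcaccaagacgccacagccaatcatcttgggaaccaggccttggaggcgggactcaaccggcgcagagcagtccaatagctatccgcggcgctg
Mcm6: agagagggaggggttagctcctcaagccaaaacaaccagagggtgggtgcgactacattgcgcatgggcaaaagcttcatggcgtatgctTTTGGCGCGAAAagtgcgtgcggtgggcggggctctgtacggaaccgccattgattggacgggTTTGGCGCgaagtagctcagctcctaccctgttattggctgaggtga
Mcm7: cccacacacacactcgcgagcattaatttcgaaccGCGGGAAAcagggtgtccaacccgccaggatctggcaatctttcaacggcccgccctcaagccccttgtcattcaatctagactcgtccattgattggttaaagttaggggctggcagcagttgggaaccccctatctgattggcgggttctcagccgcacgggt

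In Mcm5 and Mcm6 a pair of E2F words on opposite strands overlapped by several bases, so that the capitals run on as 1 longer stretch. Mcm6, whose transcript rose, and Mcm7, whose transcript showed no detected difference (below), both carried E2F words. Words that lay after the start are shown in 30 bases each, for Mcm3 (chr1:20820265-20820294, minus strand), for Mcm7 (chr5:138171849-138171878, minus strand) and for Cdt1 (chr8:122568035-122568064, plus strand).
Mcm3: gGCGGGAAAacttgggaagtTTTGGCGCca
Mcm7: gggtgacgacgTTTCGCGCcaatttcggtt
Cdt1: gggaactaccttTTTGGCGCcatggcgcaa

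Pcna, Dbf4 and Mcm2 had none of the 4 E2F words in these windows, and neither did the second annotated start of Mcm7. For comparison, the 200 bases before the start of Pcna (chr2:132253181-132253380, minus strand) are given with CCAAT, here on the opposite strand, in capitals.
Pcna: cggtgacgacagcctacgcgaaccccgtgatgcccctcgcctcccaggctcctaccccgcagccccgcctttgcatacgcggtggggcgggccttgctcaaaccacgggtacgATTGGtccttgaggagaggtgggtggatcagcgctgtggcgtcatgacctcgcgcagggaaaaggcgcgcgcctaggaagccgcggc

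In the first Mcm7 window, the E2F word after the start shares its last base with a CCAAT, at position 24. These matches are descriptions of letters in a window, and binding was not measured.

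**Figure D1:**
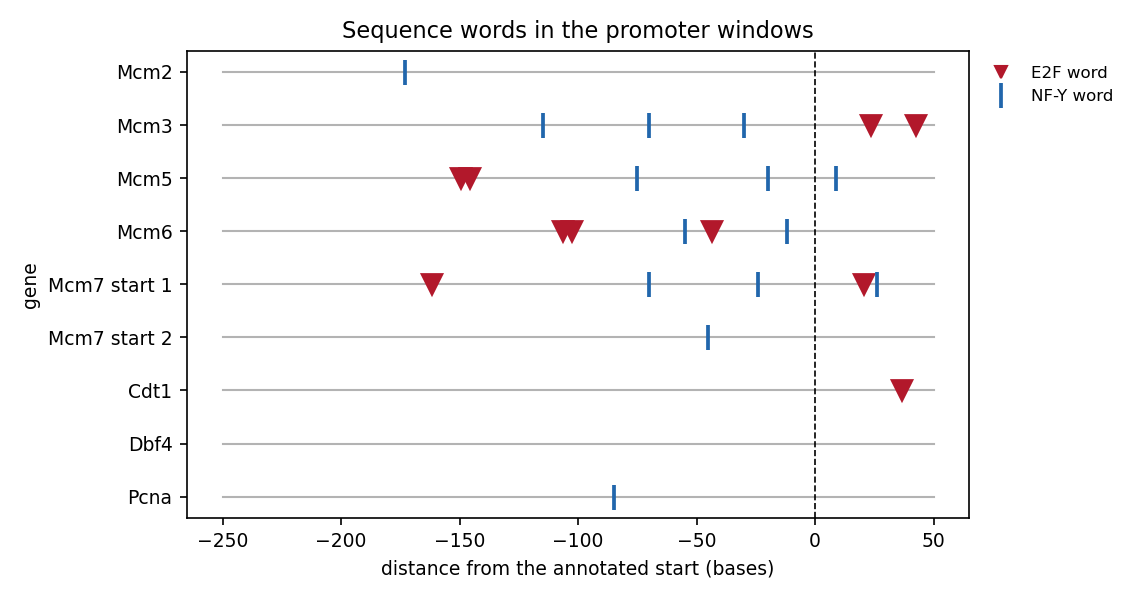
Positions of E2F words (red triangles) and of the NF-Y word (blue ticks) in 9 promoter windows of 8 replication licensing genes, with distance from the annotated start in bases on the x axis and a gray line for each window. Mcm5 and Mcm6 hold overlapping E2F words before the start, those of Mcm3 and Cdt1 lie after it, and Mcm2, Dbf4, Pcna and the second start of Mcm7 hold none.

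The comparison of invasive cancer with PIN stroma asks how the stromal expression of these genes differed between the tumor stages. Of the 9 genes, 5 rose in invasive stroma at a limma adjusted p under 0.15, the false discovery rate used in the study: Cdt1 (2.69-fold), Gmnn (2.60-fold), Pcna (2.59-fold), Mcm6 (2.50-fold) and Dbf4 (1.70-fold). Of all genes, 5.64% passed in either direction and 3.75% upward. None of the 9 passed downward, where 1.89% of all genes did, and none passed at 0.05, where 0.703% of all genes passed upward. The unadjusted limma p was under 0.05 for 7 of the 9, and for 1214 of all 8106 genes. The difference was above 0 for 8 of the 9, against 52% of all genes, and the median log2 difference was 1.03, against 0.02 over all genes. All 6 invasive arrays exceeded all 3 PIN arrays for Cdt1, Dbf4 and Mcm6, an arrangement seen for 4.86% of all genes. The calls depended on single arrays, as did those over all genes, of which 457 passed with every array included. Without PIN replicate 2 or PIN replicate 3 none of the 9 passed, beside 37 and 91 of all genes. Without invasive replicate 2, 5 or 6 only Cdt1 did, beside 222, 219 and 268 of all genes. Without invasive replicate 4 there were 3, beside 201 of all genes. Without PIN replicate 4, the array that stood apart, 4 passed, beside 400 of all genes.

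Cdt1, the loading factor, had the smallest p of the 9. Its log2 ratios on invasive replicates 1 to 6 were 0.54, 1.10, 2.23, 1.15, 1.35 and 0.79, and on PIN replicates 2, 3 and 4 they were 0.02, -0.53 and -0.20. Invasive replicate 3 was highest, and the groups did not overlap. The means were 1.19 ± 0.58 (SD, n = 6) and -0.24 ± 0.27 (SD, n = 3), a log2 difference of 1.43 (SE 0.32, limma adjusted p = 0.0565). Cdt1 passed in 7 of the 9 fits that left out 1 array, and the limma adjusted p was 0.177 without PIN replicate 2 and 0.217 without PIN replicate 3.

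Gmnn encodes geminin, the inhibitor of Cdt1. Its ratios were 0.35, 2.10, 1.99, 1.65, 0.63 and 1.90 on the invasive arrays in order and -0.62, -0.11 and 0.89 on the PIN arrays. The groups overlapped, because invasive replicates 1 and 5 lay below PIN replicate 4. The log2 difference was 1.38 (SE 0.44, limma adjusted p = 0.148), just inside the threshold, and it passed in 3 of the 9 fits without 1 array, those without invasive replicate 1, invasive replicate 3 or PIN replicate 4. Both clones of Gmnn were higher in invasive stroma, by 1.55 (limma adjusted p over all clones = 0.126) and 1.21 (0.356) on the log2 scale.

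The difference between Cdt1 and its inhibitor within an array was compared as well. Cdt1 minus Gmnn averaged -0.24 ± 0.74 on the invasive arrays (SD, n = 6) and -0.29 ± 0.88 on the PIN arrays (SD, n = 3), a change of 0.05 (two-sided exact permutation test over 84 splits, p = 0.893, and p = 1 adjusted over 3 such contrasts). No shift between the transcripts was detected, and the spread between arrays was far larger than the change. The smallest p that the design allows is 0.0119.

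Dbf4, the activator of Cdc7, varied least between arrays, but as the mean of 4 clones, where the other genes had 1 or 2. Taken singly, its clones had SDs of 0.14 to 0.65 among the invasive arrays. Its ratios were 0.38, 0.90, 1.09, 0.62, 0.79 and 1.06 on the invasive arrays and -0.06, 0.10 and 0.08 on the PIN arrays, with no overlap. The log2 difference was 0.76 (SE 0.20, limma adjusted p = 0.0933), and it passed in 4 of the 9 fits without 1 array. Of its 4 clones, 2 passed, with differences of 1.12 (limma adjusted p over all clones = 0.0461) and 1.03 (0.144), whereas the others gave 0.64 (0.519) and 0.26 (0.834). The first of these clones read 1.11, 1.13, 1.31, 0.86, 1.11 and 1.09 on the invasive arrays and -0.15, -0.26 and 0.35 on the PIN arrays. Its spread was narrower than that of the gene as a whole among invasive mice, but wider among PIN mice (SD 0.32 against 0.09).

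**Figure D2:**
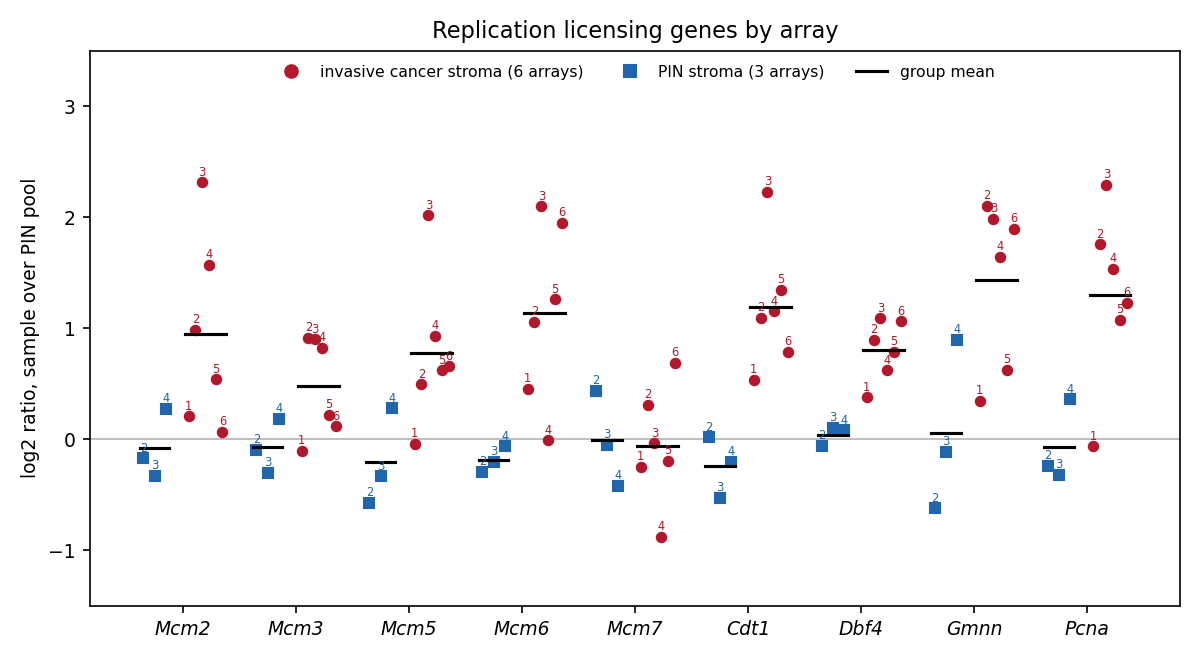
Log2 ratio of sample over PIN pool (y axis) for 9 replication licensing genes (x axis), with clones of a gene averaged; red circles are the 6 invasive arrays, blue squares the 3 PIN arrays, small digits the replicate numbers and black lines the group means. The groups do not overlap for Mcm6, Cdt1 and Dbf4, and invasive replicate 3 is the highest array for 6 of the 9 genes.

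Of the helicase genes, Mcm6 alone passed, 1 of 5. Its ratios were 0.45, 1.06, 2.10, -0.01, 1.26 and 1.95 on the invasive arrays and -0.29, -0.20 and -0.06 on the PIN arrays. The groups did not overlap, but invasive replicate 4 exceeded the highest PIN array by only a small margin. The log2 difference was 1.32 (SE 0.41, limma adjusted p = 0.140), and it passed in 3 of the 9 fits without 1 array. In the fit over all clones, where more tests are adjusted for, the same single clone had an adjusted p of 0.197 by limma.

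Mcm2 and Mcm5 had differences of similar size but did not pass. Mcm2 read 0.21, 0.99, 2.31, 1.57, 0.54 and 0.07 on the invasive arrays and -0.17, -0.33 and 0.27 on the PIN arrays. Its invasive values ran from near 0 to the highest value of any of the 9 genes, with a log2 difference of 1.03 (SE 0.43, limma adjusted p = 0.286). Mcm5 read -0.04, 0.50, 2.02, 0.93, 0.62 and 0.66 on the invasive arrays and -0.57, -0.33 and 0.28 on the PIN arrays. Invasive replicate 1 lay below PIN replicate 4, and the difference was 0.99 (SE 0.37, limma adjusted p = 0.222).

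The clones of Mcm3 disagreed. As a gene it read -0.11, 0.92, 0.90, 0.82, 0.22 and 0.12 on the invasive arrays and -0.10, -0.30 and 0.19 on the PIN arrays, a log2 difference of 0.55 (SE 0.27, limma adjusted p = 0.359). The first clone differed by 1.18 (limma adjusted p over all clones = 0.165) and the second by -0.09 (0.958). On the second clone the invasive values of replicates 2, 3 and 4 were 0.41, 0.35 and 0.30, where the first read 1.42, 1.45 and 1.34. The average of the clones therefore lies between unlike spots.

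Mcm7 showed no detected difference. It read -0.25, 0.31, -0.04, -0.88, -0.19 and 0.69 on the invasive arrays and 0.44, -0.05 and -0.42 on the PIN arrays. Values of either group spread on both sides of 0, and the log2 difference was -0.05 with a 95% interval from -0.73 to 0.63 (limma adjusted p = 0.966). It rests on 1 clone, and its sign turned without invasive replicate 4 (0.11) and without PIN replicate 2 (0.17).

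Dbf4 was also set against the mean of the 5 helicase genes within each array. The difference averaged 0.15 ± 0.27 on the invasive arrays (SD, n = 6) and 0.15 ± 0.17 on the PIN arrays (SD, n = 3) (two-sided exact permutation test, p = 1, adjusted p = 1). Kinase activator and helicase subunits thus gave no detected difference in their change, although that mean contains both Mcm6 and Mcm7.

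Pcna, the clamp, read -0.06, 1.76, 2.29, 1.54, 1.08 and 1.23 on the invasive arrays and -0.24, -0.32 and 0.36 on the PIN arrays. Invasive replicate 1 lay below PIN replicate 4, and the other 5 invasive arrays lay above all PIN arrays. The log2 difference was 1.37 (SE 0.41, limma adjusted p = 0.128). Its 2 clones each differed by 1.28, with limma adjusted p over all clones of 0.153 and 0.256. The value of Pcna on invasive replicate 3 came from 1 clone, since the other had none there, and with clones measured on all 9 arrays alone Pcna did not pass (1.28, limma adjusted p = 0.187). The annotation also lists Pcna pseudogenes, whose transcripts a cDNA spot may not separate from Pcna.

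Pcna exceeded the mean of the helicase genes by 0.65 ± 0.43 on the invasive arrays (SD, n = 6) and 0.04 ± 0.23 on the PIN arrays (SD, n = 3). The change of 0.60 on the log2 scale had p = 0.0833 (two-sided exact permutation test, adjusted p = 0.25). Without invasive replicate 1 it was 0.76 (exact permutation test, adjusted p = 0.0536), and in the other fits without 1 array 0.52 to 0.74. Leaving out an invasive array leaves 56 splits, and leaving out a PIN array 28. With so few splits, a lone contrast adjusted over 3 could not reach an adjusted p under 0.05. The p values of those fits therefore cannot decide whether Pcna changed more than the helicase genes. The helicase mean also contains Mcm7 (-0.05) and Mcm3 (0.55). Mcm6, Mcm2 and Mcm5 differed by 1.32, 1.03 and 0.99, beside 1.37 for Pcna.

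At the level of single clones, 4 of the 15 passed upward, where 1.52% of all clones did. Of the 15 differences 13 were above 0, as were 8743 of the 17207 over all clones. All invasive arrays exceeded all PIN arrays for 4 clones, 2 of Dbf4 and those of Cdt1 and Mcm6, against 3.73% of all clones. Clones of 1 gene share its RNA and are not replicates of the condition. Neither of the clones of Mcm3 passed, and among the genes with several clones only Dbf4 had more than 1 passing clone.

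**Figure D3:**
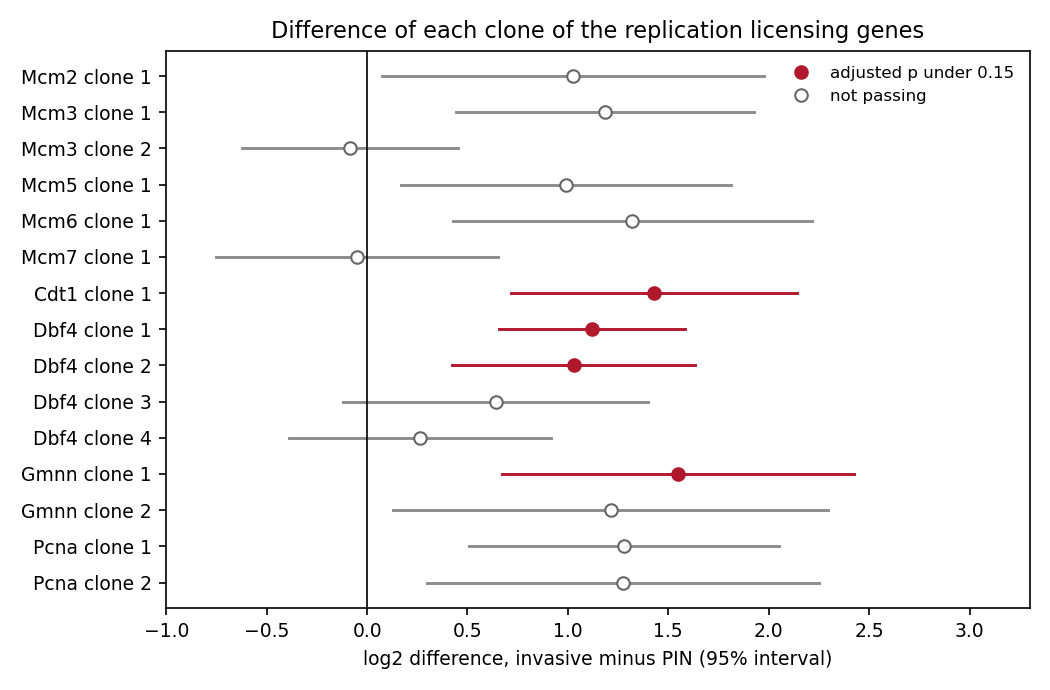
Log2 difference between invasive and PIN stroma (x axis) for each of the 15 clones of the replication licensing genes (y axis), with 95% intervals from limma; filled red points passed at an adjusted p under 0.15 over all clones, open points did not. The clone of Cdt1, 1 of the 2 Gmnn clones and 2 of the 4 Dbf4 clones passed, while the second Mcm3 clone and the Mcm7 clone lie close to 0.

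The mean of the 9 genes differed between mice. This mean log2 ratio was 0.16, 1.07, 1.65, 0.82, 0.70 and 0.94 on invasive replicates 1 to 6 and -0.18, -0.23 and 0.15 on PIN replicates 2, 3 and 4. Invasive replicate 3 was the highest array for 6 genes, invasive replicate 2 for 2 and invasive replicate 6 for 1. Invasive replicate 1 was the lowest invasive array for 6 of the 9, invasive replicate 4 for Mcm6 and Mcm7 and invasive replicate 6 for Mcm2. The mean of invasive replicate 1 exceeded that of PIN replicate 4 so narrowly that the groups of means all but met.

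Invasive replicate 3 differed from the other invasive arrays in its cell type markers too. The median log2 ratio of 6 neuroendocrine tumor markers was 0.91, 1.63, 2.21, 1.62, 0.96 and 0.43 on the invasive arrays and 0.29, 0.01 and 0.12 on the PIN arrays, and replicate 3 was highest. All 6 markers differed by more than 0, beside 52% of all genes, and 1 passed upward, beside 3.75% of all genes. It was Foxa2 (2.50, SE 0.64, limma adjusted p = 0.0871), a transcription factor found in neuroendocrine prostate tumors, with Uchl1 next (1.08, limma adjusted p = 0.182). The other 9 of the 15 listed markers were not measured under their symbol. The part of neuroendocrine tumor cells in the values of the licensing genes was not tested.

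Without invasive replicate 3, 6 of the 9 licensing genes passed, Mcm5 joining the 5, and their median log2 difference was 0.75. Without invasive replicate 3 and PIN replicate 4 together, a setting chosen after seeing the data, 6 passed as well, again with Mcm5 added. Cdt1 then differed by 1.24 (limma adjusted p = 0.0274). The number of all genes that passed also rose in these fits, to 896 without invasive replicate 3 and 1064 without both, from 457.

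Markers of several other cell types were higher in invasive stroma, and their counts are to be read beside the 3.75% of all genes that passed upward. Values were available for 6 of 15 listed macrophage, 12 of 15 fibroblast and 6 of 10 endothelial markers. All 6 macrophage markers rose, with Ms4a6d at 3.17 and Fcgr3 at 2.77 (limma adjusted p = 0.00409 for each), and their median on invasive replicate 3 was 0.84, against 2.68 to 2.83 on the other invasive arrays and -0.38 to 0.41 in PIN. Of 12 fibroblast markers 6 rose, led by Bgn (2.33, limma adjusted p = 0.00543) and Col3a1 (1.55, adjusted p = 0.0431), and their median was 0.38 on invasive replicate 3, against 1.21 to 1.62 on the other invasive arrays and -0.62 to 0.23 in PIN. Of 6 endothelial markers 2 rose, Esam (1.53, limma adjusted p = 0.0230) and Emcn (1.86, adjusted p = 0.0431), with a median of 0.33 on invasive replicate 3, against 1.39 to 1.76 on the others and 0.04 to 0.05 in PIN. The array with the highest licensing genes was thus the lowest of the invasive arrays for these 3 cell types, and the part of any of them in the result was not tested.

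Some epithelial and smooth muscle markers fell, to be read beside the 1.89% of all genes that passed downward. Values were available for 7 of 13 listed epithelial and 4 of 9 listed smooth muscle markers. Of 7 epithelial markers 1 fell, Tspan8 (-1.88, limma adjusted p = 0.101), with Cldn3 next (-0.72, adjusted p = 0.352). The median of the 7 was -1.79 to -0.54 in invasive stroma. In PIN stroma it was -1.32 and -1.58 on replicates 2 and 3, inside that range, and 0.82 on replicate 4. Among the invasive arrays, replicate 3 had the highest epithelial median, -0.54 against -1.79 to -1.08 on the others. Tspan8 read -1.51, -1.58 and 1.20 on PIN replicates 2, 3 and 4, against -2.89 to -1.88 on the invasive arrays. Epcam, named after its values were seen, was the 1 epithelial marker with a difference above 0 (0.40, limma adjusted p = 0.868). It read 1.36 on invasive replicate 3 and -1.44 to -0.33 on the other invasive arrays. On PIN replicates 2, 3 and 4 Epcam read -1.57, -2.44 and 1.43. Of 4 smooth muscle markers 2 fell, Myl9 (-2.23, limma adjusted p = 0.101) and Myh11 (-2.57, adjusted p = 0.136), with a median of -3.96 to -0.39 in invasive and -0.60 to 0.43 in PIN stroma. Cd4, the lymphocyte marker that was measured, 1 of 11 listed, differed by -0.16 (limma adjusted p = 0.793).

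**Figure D4:**
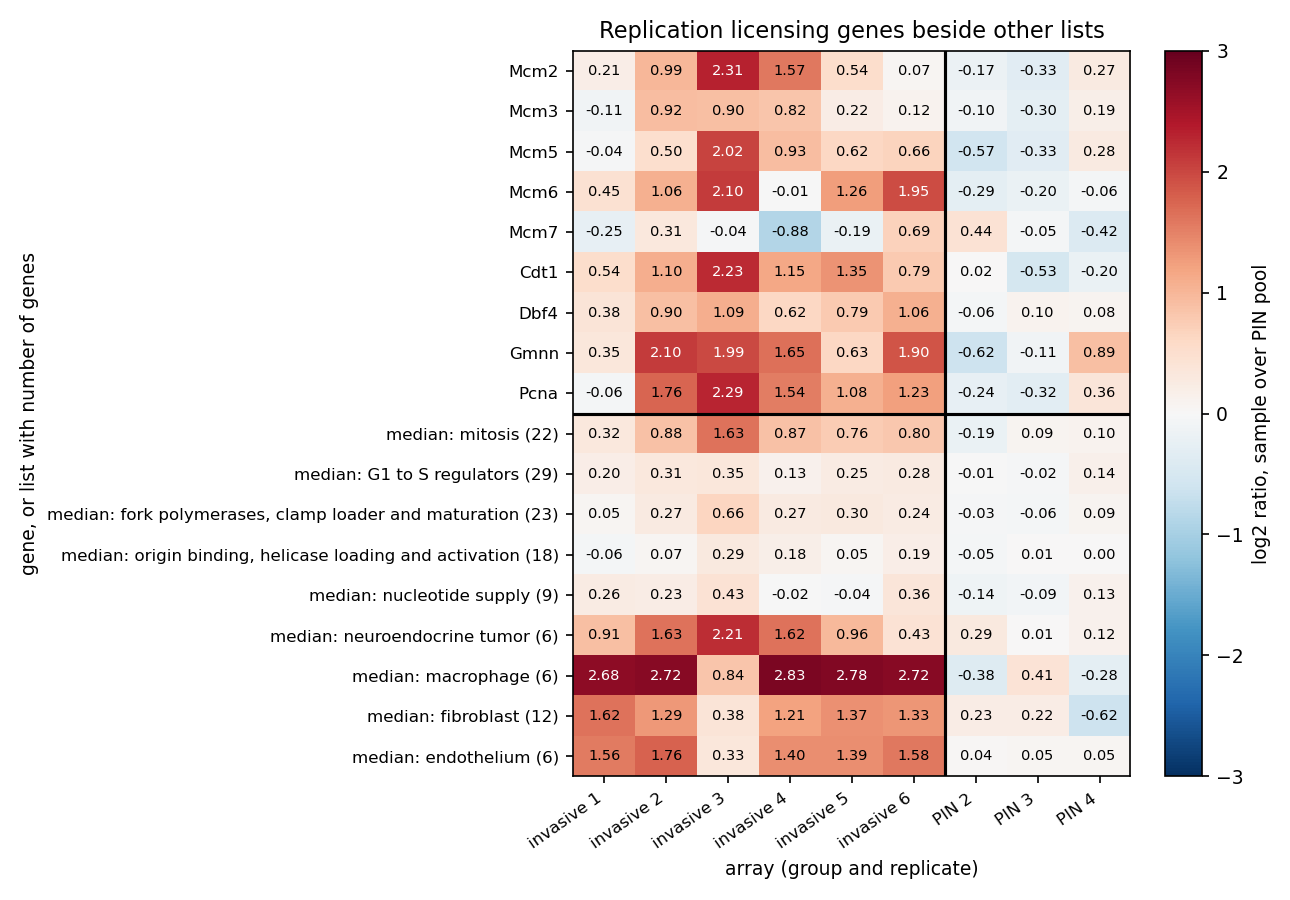
Heat map of log2 ratios of sample over PIN pool (color scale and printed values) for the 9 replication licensing genes (above the line) and for the median of replication, cell cycle and cell type lists (below it; number of genes in brackets), by array (columns). Invasive replicate 3 has the highest medians for mitosis and neuroendocrine tumor markers and the lowest invasive medians for macrophage, fibroblast and endothelial markers.

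Other genes of replication and the cell cycle were read from 5 lists, 101 genes with a value, of which 17 passed upward and none downward, beside 3.75% and 1.89% of all genes, with a median log2 difference of 0.31, beside 0.02 over all genes. Of the 17, 10 came from the list of 22 mitosis genes, which had a median of 0.80. They were led by Birc5 (2.37, limma adjusted p = 0.00409), which encodes survivin of the chromosomal passenger complex, Ccnb2 (1.52, adjusted p = 0.0512), a mitotic cyclin, Bub1b (0.99, adjusted p = 0.0565), of the spindle checkpoint, and Cdk1 (1.63, adjusted p = 0.0672), the mitotic kinase. The mitosis median by array was 0.32, 0.88, 1.63, 0.87, 0.76 and 0.80 in invasive and -0.19, 0.09 and 0.10 in PIN stroma, with invasive replicate 3 highest and invasive replicate 1 lowest among the invasive arrays, as for the licensing genes. The mitosis list holds Birc5, Pttg1, Nusap1 and Smc4, which the study had reported as higher in invasive stroma from arrays that include these. Its count of 10 is therefore not independent of the study's result.

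Of 18 genes of origin binding, helicase loading and activation, 1 passed upward, a share near the 3.75% of all genes. It was Wdhd1 (1.09, SE 0.24, limma adjusted p = 0.0565), which links the helicase to polymerase alpha, and the list median was 0.21. The origin recognition subunits Orc1, Orc2, Orc3, Orc4, Orc5 and Orc6 lay between -0.17 and 0.46, and none passed. Cdc6, the loading partner of Cdt1, differed by 0.68 (SE 0.31, limma adjusted p = 0.334). Orc and Cdc6 are named here as partners in loading and were chosen after their values were seen.

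The counts of the remaining lists, too, are to be read beside the 3.75% of all genes that passed upward. At the fork, 2 of 23 genes passed, Chaf1a (0.67, limma adjusted p = 0.105), of the chromatin assembly factor that PCNA recruits, and Fen1 (0.58, adjusted p = 0.148), the flap nuclease that acts with PCNA, with a list median of 0.31. None of 9 genes of nucleotide supply passed by limma. The unadjusted limma p was under 0.05 for 3 of them, and for 1214 of all 8106 genes. The smallest p values were those of Tk1 (0.84, limma adjusted p = 0.156) and Rrm1 (0.78, adjusted p = 0.226). Of 29 regulators of the G1 to S transition 4 passed, Cdk6 (0.79, limma adjusted p = 0.115), Skp2 (0.80, adjusted p = 0.139), Cdk4 (0.70, adjusted p = 0.139) and Ccna2 (1.13, adjusted p = 0.140), with a list median of 0.20. Skp2 belongs to a ubiquitin ligase that marks Cdt1 for destruction.

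**Figure D5:**
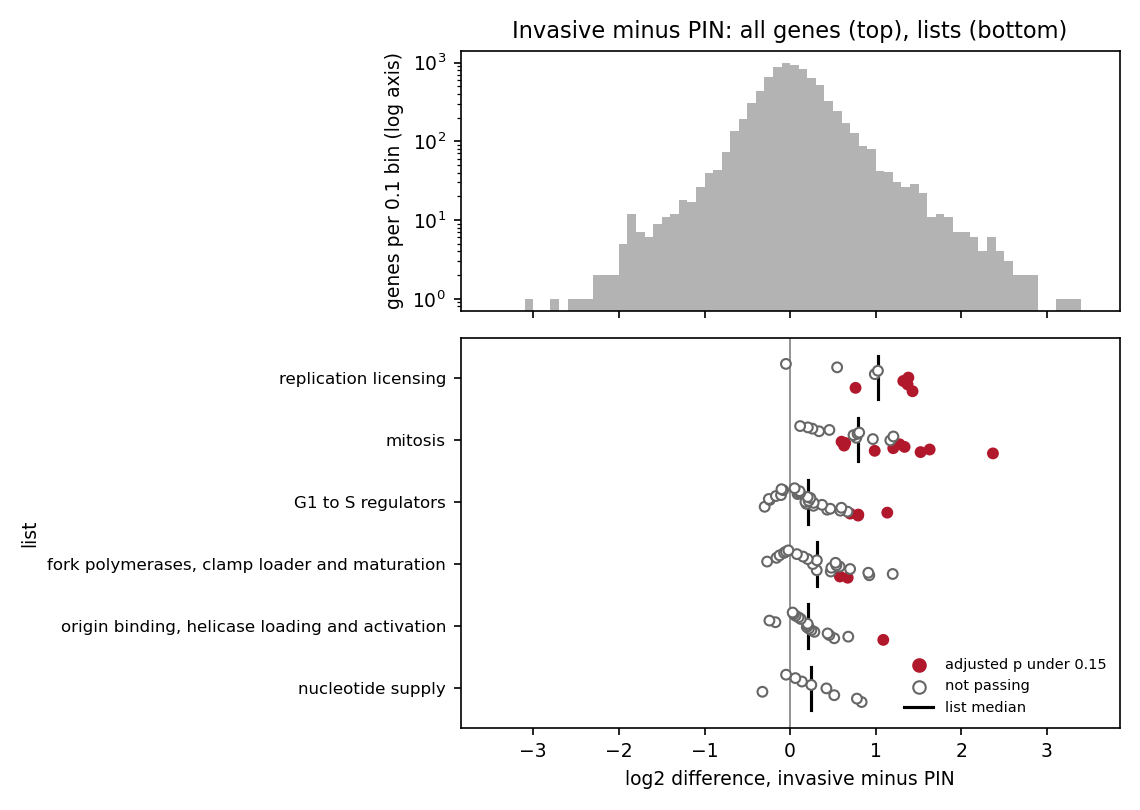
Top, number of genes per bin (log axis) of the log2 difference between invasive and PIN stroma for all 8106 genes; bottom, the same difference for each gene of the replication licensing set and of 5 replication and cell cycle lists, filled where the limma adjusted p was under 0.15, with black ticks at list medians. The licensing and mitosis medians lie at 1.03 and 0.80, the other list medians between 0.20 and 0.31; vertical placement within a list only separates points.

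The genes most like the licensing set were sought by the root mean square difference from its mean profile over the 9 arrays, among 8078 genes with a value on each. The 8 nearest outside the set were Jpt1 (0.199), Nek2 (0.203), Tmx1 (0.226), Plk1 (0.231), Lmnb1 (0.249), Pttg1 (0.253), Ttk (0.255) and Ezh2 (0.255), in log2 units. The licensing genes themselves lay between 0.256 (Dbf4) and 0.949 (Mcm7), each being part of the mean. Nek2, Plk1 and Ttk encode mitotic kinases and Pttg1 securin, which guards sister chromatids, while Lmnb1 encodes a nuclear lamin and Ezh2 a histone methyltransferase. Of the 8, Tmx1 (0.96, limma adjusted p = 0.0620) and Pttg1 (1.20, adjusted p = 0.0981) rose, and the other 6 did not pass. Of all genes, 3.75% passed upward. The 8 were picked for likeness to a profile that is higher in invasive stroma, so their differences above 0 follow from that choice.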

How the data were processed

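Per the labels and the study's methods, microdissected RNA was amplified in rounds of linear amplification and hybridized to spotted cDNA arrays. The authors extracted intensities with ScanAlyze and applied print-tip group lowess without background subtraction. Deposited values are log2 ratios of sample (Cy5) over PIN pool (Cy3), with no dye swap. Spot intensities were not used, so dim spots were not removed, and the number of arrays limits precision.

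Of 17664 rows, 457 had no value, and 12563 had 1 symbol, 412 several and 4689 none. Within an array, clones sharing a symbol were averaged. Genes with at least 4 invasive and 2 PIN values were fitted, as invasive minus PIN, in limma 3.58.1 (R 4.3.3; lmFit and eBayes, two-sided, with Benjamini-Hochberg adjustment over all genes or all clones), after the fit was tested on simulated data. The threshold was 0.15. Contrasts between members used exact permutation over arrays, read at an adjusted p under 0.05. The text names all members, of each replication list the passing genes of smallest p (at most 4, or 2 of a list without any), up to 2 per cell type list, and the 8 nearest profiles. Exceptions are marked. Members, lists and motif words were chosen with earlier results of these data known. Figures used matplotlib 3.10.9.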

Additional observations from a re-analysis of the deposited data

Results flagged for a closer look

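Of 27 sets of invasive values examined for an array far from the rest, 1 stood out, and about 1 in 20 sets would do so by chance. Dbf4 minus the mean of the helicase genes was -0.37 on invasive replicate 3, whereas the next lowest invasive array was at 0.13, a gap that took up 0.68 of the whole range. On that array Dbf4 read 1.09 while the mean of the helicase genes read 1.46.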

How the results depend on the processing

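Beside the reported counts of 457 genes, 5 licensing genes, 4 of their clones and 17 of the 101 other replication and cell cycle genes, the methods' t-test, whose treatment of variances is not given in the sources used here, gave 207, 2, 0 and 7 with unequal variances and 54, 0, 1 and 1 with equal variances, array weights 1685, 8, 11 and 35, invasive arrays against 0 instead of PIN 2595, 8, 12 and 50, and a threshold of 0.05 gave 76, 0, 1 and 1. Quantile normalization left 322 of all genes, 3 licensing genes, 2 clones and 8 other genes. Scaling arrays to 1 spread left 374 of all genes, 4 licensing genes, 3 clones and 11 other genes. Leaving out 1 array gave 37 to 896 genes, 0 to 6 licensing genes, 0 to 8 clones and 1 to 23 other genes. The fewest came without PIN replicate 2, and PIN replicate 3 left 91 genes and no licensing gene. Over these fits the median difference of the licensing genes was 0.75 to 1.23. Replicate numbers did not pair the samples (correlation of same-numbered deviations -0.14, -0.05 and -0.04). Replicates 2 to 4 with a replicate block gave 90 genes, 2 licensing genes, 0 clones and 8 other genes, and without the block, added after seeing the data, 134, 5, 5 and 10, with a median difference of the licensing genes of 1.36 in both. Leaving out invasive replicate 3 and PIN replicate 4 together, also added later, gave 1064 genes and 8 clones.

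Of the licensing genes, 8 kept their sign in all 22 planned settings. Some of these settings, such as the t-tests and the stricter threshold, left each difference unchanged and could not turn a sign. The fits without 1 array could, and the same 8 genes kept their sign in each of them. Mcm7, not called, turned when invasive replicate 4 or PIN replicate 2 was left out, with -0.25 to 0.17 over the fits without 1 array. Cdt1 minus Gmnn, near 0, ran from -0.35 to 0.51 without 1 array, and was -0.13 in replicates 2 to 4 and -0.45 without invasive replicate 3 and PIN replicate 4. Dbf4 minus the helicase mean ran from -0.065 to 0.10 without 1 array, and was 0.0051 with the median of clones and 0.039 without those 2 arrays. The cause of these shifts was not tested.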
